A study of Mus musculus with 45 samples.

Results

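Very low density lipoprotein (VLDL) is the particle in which hepatocytes export triglyceride. Its scaffold is apolipoprotein B, which is loaded with lipid in the endoplasmic reticulum by the microsomal triglyceride transfer protein, encoded by *Mttp*, as the chain is being made. The exchangeable apolipoproteins of the A, C and E classes are secreted by the same cells and sit on the surface of VLDL and of high density lipoprotein (HDL), where they activate or inhibit lipases and serve as ligands for receptors. The 10 genes described here are *Apob* and *Mttp*, *Apoa1*, *Apoa2*, *Apoa4* and *Apoa5*, *Apoc1*, *Apoc2* and *Apoc3*, and *Apoe*. They were chosen by name, all 10 were found among the 39179 genes of the count data, and all 10 were among the 17464 genes detected with more than 4 reads in any mouse.

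Livers came from 45 female C57BL/6 mice, 5 in each of 9 groups. The vehicle group was gavaged with sesame oil and the other 8 groups with TCDD (2,3,7,8-tetrachlorodibenzo-p-dioxin), a potent activator of the aryl hydrocarbon receptor (AhR). The doses were 30, 10, 3, 1, 0.3, 0.1, 0.03 and 0.01 µg/kg, given every 4 days for 28 days, with the first gavage on postnatal day 28. The sample labels also describe the animals as ovariectomized and the gavage as daily, which the methods of the study do not state. Whole liver was sequenced, so fewer hepatocytes and less RNA per hepatocyte cannot be told apart in any value below.

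Each liver had between 11767284 and 56509899 reads on genes (median 17225047), and the least covered of the 10 genes in any mouse, *Apoc2*, had 1246 reads. *Cyp1a1*, a direct AhR target, checked the treatment, with 7.50 ± 6.33 CPM (read counts scaled to a common library size by the trimmed mean of M-values, TMM) in the vehicle and 7627 ± 1186 CPM at 30 µg/kg (SD, n = 5 mice). Of 8 hepatocyte markers all were present, and their summed level ranged from 113410 to 148900 CPM in the vehicle and from 106400 to 158260 CPM at 30 µg/kg. Most of that sum was the albumin gene, *Alb*. Replicate 4 of the 30 µg/kg group stood apart from its group on the first principal component of log2 CPM, at 43.3 against 65.8 to 76.9 for the other 4 mice. So did replicate 5 of the 0.01 µg/kg group, at 3.41 against -40.6 to -23.7, and its *Cyp1a1* level was 69.7 CPM against 1.18 to 4.54 CPM in the rest of its group and 25.3 to 71.8 CPM at 0.03 µg/kg. Leaving out that mouse changed no count of the 10 genes called and no call at 1 µg/kg or above. Libraries also differed in the balance of short and long genes, measured as a short-minus-long index, the mean log2 CPM of short genes minus that of long genes in a library.

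The genes lie mostly in clusters. *Apoa1* (chr9:46228580-46230466, plus strand), *Apoc3* (chr9:46232933-46235636, minus strand), *Apoa4* (chr9:46240696-46243459, plus strand) and *Apoa5* (chr9:46268633-46271919, plus strand) are neighbours on GRCm38. *Apoc2* (chr7:19671579-19677941), *Apoc1* (chr7:19689481-19692660) and *Apoe* (chr7:19696109-19699188) follow each other on the minus strand of chromosome 7. *Apoa2* (chr1:171225054-171226379, plus strand), *Apob* (chr12:7977648-8016835, plus strand) and *Mttp* (chr3:138089854-138144968, minus strand) stand alone. Summed exon lengths ran from 537 bp for *Apoa2* to 6206 bp for *Mttp* and 13934 bp for *Apob*.

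At the highest dose 8 of the 10 genes fell and 0 rose. *Apoa1* fell by 68.6%, *Apoc1* fell by 57.9%, *Apoc3* fell by 48.3% and *Apoe* fell by 43.9%. *Apoa2* fell by 37.3%, *Apoc2* fell by 34.3%, *Mttp* fell by 31.4% and *Apob* fell by 26.4%. *Apoa4* and *Apoa5* were not called. A call is an adjusted p under 0.05 in edgeR's quasi-likelihood test against the vehicle, and by that rule 14.1% of all 17464 genes fell and 15.5% rose at 30 µg/kg. The median log2 fold change was -0.64 over the 10 genes and 0.02 over all genes tested. By the stricter rule of a fall of at least 2-fold, which 3.42% of all genes met, 2 of the 10 were called, *Apoa1* and *Apoc1*. The 8 calls at 30 µg/kg held with each of the 45 mice left out in turn, also without TCDD 30 replicate 4. Scaling by library size alone, which moved the median of all genes at 30 µg/kg from 0.02 to 0.23, ended the call of *Apob* (log2 fold change -0.22, adjusted p = 0.1593). It also moved the split of all calls from 2467 lower and 2700 higher to 1222 lower and 4996 higher.

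**Figure D1:**
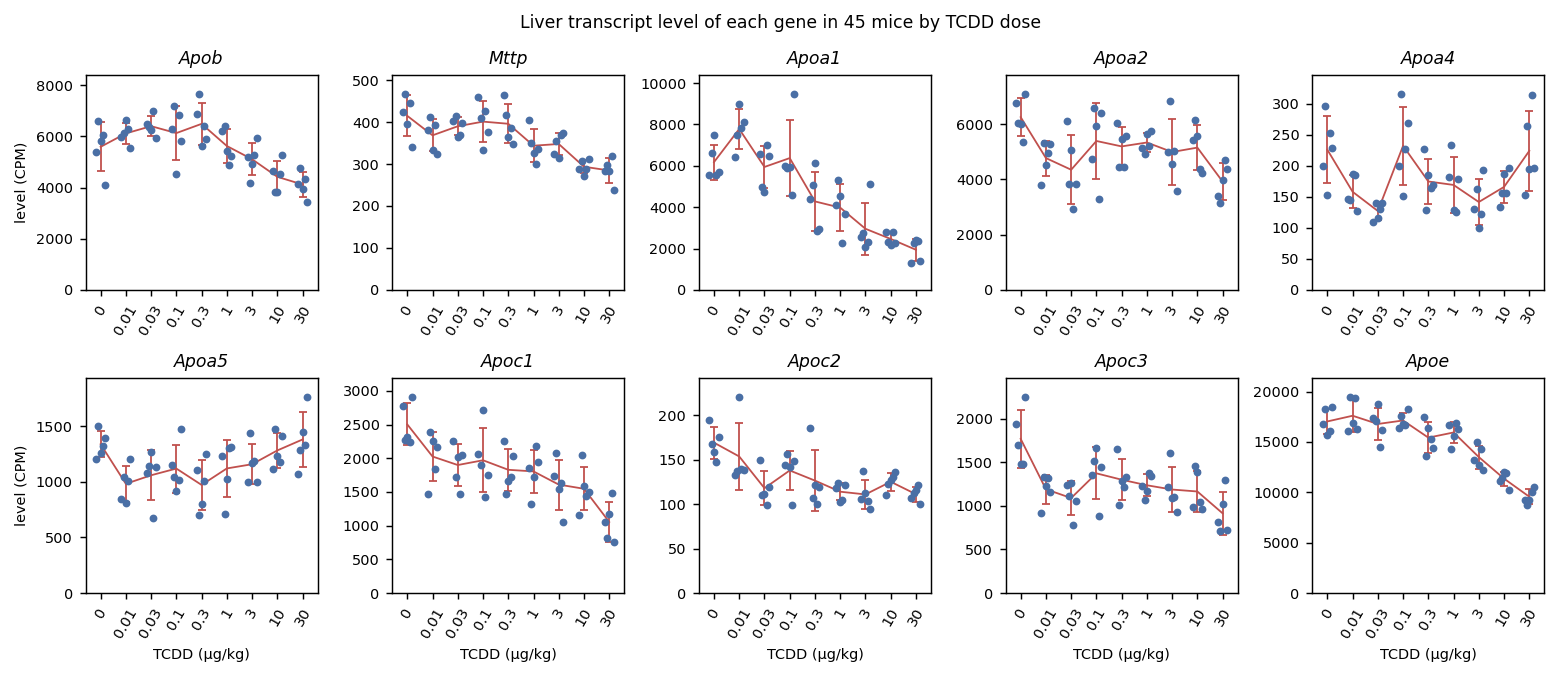
Level in CPM (vertical axes, from 0) of each of the 10 genes in the 45 livers against TCDD dose in µg/kg (horizontal axes, 0 is the vehicle, doses evenly spaced). Blue points are mice, and the red line joins group means with bars of 1 SD (n = 5 mice). *Apoa1* and *Apoe* drop steadily over the upper doses, and *Apoa4* has a mean of 141 CPM at 3 µg/kg and of 224 CPM at 30 µg/kg.

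Counted by dose, 0 of the 10 genes were called at 0.01, 0.03, 0.1 and 0.3 µg/kg, where 0%, 0.0229%, 0% and 0.143% of all genes fell. At an unadjusted p under 0.05 the counts at these doses were 4, 6, 2 and 5, all lower than the vehicle, and DESeq2 called 0, 2, 0 and 0. Shares of all genes by these rules were not counted. The highest unadjusted p among those genes stood at rank 1022, 1940, 694 and 1010 of all 17464 genes. Many other genes therefore passed the same unadjusted limit. At 1 µg/kg 1 gene fell (*Apoc2*), against 0.515% of all genes. At 3 µg/kg 6 fell, against 3.2% of all genes, and 1 of them by at least 2-fold, against 0.819%. At 10 µg/kg 7 fell, against 7.47% of all genes, and 1 by at least 2-fold, against 1.73%. No gene of the 10 rose at any dose. All 8 comparisons share the same 5 vehicle mice.

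**Figure D2:**
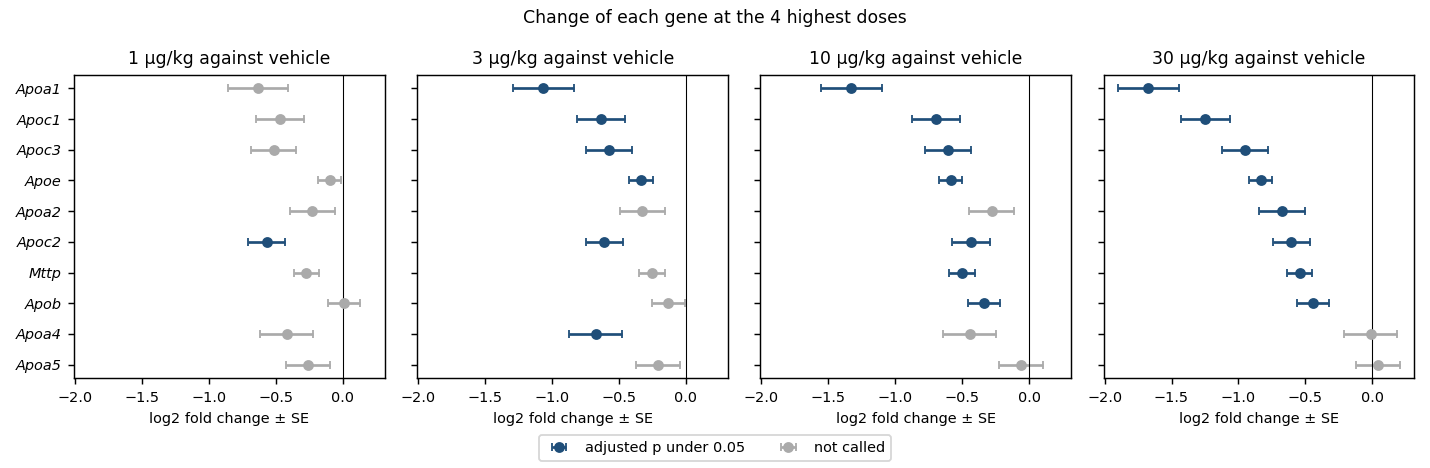
Log2 fold change against the vehicle (horizontal axes) with bars of 1 SE for each of the 10 genes at 1, 3, 10 and 30 µg/kg TCDD, one panel per dose. Dark points have an adjusted p under 0.05 and grey points do not. The dark points number 1, 6, 7 and 8 from left to right, and all lie below 0.

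The lipid-loading partners *Apob* and *Mttp* fell by modest amounts and were called only at 10 and 30 µg/kg. *Apob* was at 5374, 6617, 5815, 6072 and 4087 CPM in the 5 vehicle livers and at 4144, 4753, 3929, 4345 and 3425 CPM in the 5 livers at 30 µg/kg. The groups overlapped, with 2 of the 5 treated mice below the lowest vehicle mouse. The log2 fold change was -0.44 ± 0.12 (SE, adjusted p = 0.004606). At 10 µg/kg the 5 livers held 4639.6, 3845, 3809, 4546 and 5267 CPM, and the fall only just passed (log2 fold change -0.34, adjusted p = 0.04819). That call was lost in 22 of the 45 fits with a mouse left out, with adjusted p from 0.05003 to 0.1702, and the log2 fold change over the 45 fits ran from -0.44 to -0.27. The smallest change was that without vehicle replicate 2. The call was also lost with library size alone (adjusted p = 0.242), upper quartile factors (0.06002), a filter of at least 1 read in any mouse (0.07237) and only the vehicle and that dose in the fit (0.09058).

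Below 3 µg/kg the means of *Apob* lay at or above that of the vehicle. They were 5593 ± 954 CPM in the vehicle, then 6118 ± 399, 6401 ± 386, 6130.5 ± 1041, 6492 ± 811 and 5627 ± 652 CPM from 0.01 to 1 µg/kg (SD, n = 5 mice each). None of these differences was called. The lowest vehicle liver held 4087 CPM and the other 4 from 5374 to 6617 CPM.

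*Mttp* fell with no overlap between groups at both upper doses. It was at 425, 467, 395, 445 and 341 CPM in the vehicle and at 284, 298, 282, 320.2 and 238 CPM at 30 µg/kg, so that all 5 treated livers lay below all 5 vehicle livers. The log2 fold change was -0.54 ± 0.10 (SE, adjusted p = 2.309e-05). At 10 µg/kg the values were 288, 307, 272, 289 and 311 CPM, again below every vehicle liver (log2 fold change -0.50, adjusted p = 0.0001806). At 3 µg/kg, with 325, 356, 314, 369 and 375 CPM, 2 livers were below the vehicle range and the difference was not called (adjusted p = 0.09749). Without vehicle replicate 5 it was called (log2 fold change -0.32, adjusted p = 0.0432). At 1 µg/kg 3 of the 5 livers were below the vehicle range, again without a call (log2 fold change -0.27, adjusted p = 0.1641). *P4hb*, the protein disulfide isomerase that is the other subunit of the transfer protein, was at 1555 ± 100.4 CPM in the vehicle and 1580 ± 93.5 CPM at 30 µg/kg (SD, n = 5 mice) and was not called (log2 fold change 0.02, adjusted p = 0.8506).

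*Mttp* shares exon sequence with *Trmt10a*, a gene on the opposite strand, over 7.36% of its exon length. *Trmt10a* was at 6.63 ± 1.08 CPM in the vehicle and 6.38 ± 0.48 CPM at 30 µg/kg (SD, n = 5 mice), far below *Mttp*.

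AhR with its partner binds DNA at elements with the core letters GCGTG, so these letters were searched on both strands (GCGTG or CACGC) in the 250 bases before each transcript start of the RefSeq promoter table (GRCm38.p6). The table held 12 starts for 8 of the 10 genes, with none for *Apoc1* and *Apoc3*. The letters were found before 1 start only, that of *Mttp*, with 2 matches. That start lies 1550 bp inside the gene from its annotated 5' end, so both matches lie within the span of *Mttp*. The bases before the annotated 5' end of *Mttp* were not searched. For *Apoe*, starts 567 and 790 bp inside the gene were searched besides that at its 5' end. The letters stand before 28.16% of all 32851 starts. A match is a run of letters and not a bound site. The stretches are shown for *Apob* and *Mttp*, the pair that builds the particle, and for *Apoa1*, the gene with the largest fall. For *Apob* (chr12:7977427-7977647, plus strand) and *Apoa1* (chr9:46228380-46228579, plus strand) all bases up to the first annotated exon are given. For *Mttp* (minus strand) only the surroundings of both matches are given, chr3:138143649-138143668 and chr3:138143515-138143539, with the matched letters in capitals.
Apob: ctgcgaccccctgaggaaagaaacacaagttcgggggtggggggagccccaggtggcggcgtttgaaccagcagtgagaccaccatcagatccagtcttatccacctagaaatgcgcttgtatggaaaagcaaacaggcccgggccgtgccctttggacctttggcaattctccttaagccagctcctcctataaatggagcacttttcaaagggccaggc
Apoa1: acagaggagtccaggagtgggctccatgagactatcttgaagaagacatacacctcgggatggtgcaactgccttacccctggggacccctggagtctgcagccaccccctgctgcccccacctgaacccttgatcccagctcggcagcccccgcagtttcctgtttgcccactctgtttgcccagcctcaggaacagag
Mttp, first match: tagctCACGCtcctttggca
Mttp, second match: ttctcggctcCACGCggtcgtcctc

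*Apoa1*, the main protein of HDL, had the largest fall of the set. It was at 5579, 6609, 7473, 5546 and 5687 CPM in the vehicle and at 1322, 2248, 2409, 2340.1 and 1374 CPM at 30 µg/kg. The groups were far apart, with the highest treated liver below the lowest vehicle liver. *Apoa1* was 3.19-fold lower (log2 fold change -1.67 ± 0.23 (SE), adjusted p = 2.358e-07). At 10 µg/kg it was 2.51-fold lower, at 2790.4, 2309, 2149.8, 2796 and 2269 CPM (adjusted p = 3.192e-05). At 3 µg/kg it was 2.09-fold lower (adjusted p = 0.001528), with 4 livers from 2055 to 2730.3 CPM and 1 liver, replicate 5, at 5142 CPM. Without that liver the log2 fold change at 3 µg/kg was -1.37 in place of -1.06.

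Below 3 µg/kg *Apoa1* was not called. At 0.01 µg/kg the livers held 6426, 7479, 9014, 7847 and 8142 CPM, 4 of them above every vehicle liver (the last value is that of replicate 5, which stood apart), a difference that was not called (log2 fold change 0.33, adjusted p = 0.6226). At 0.3 and 1 µg/kg the means were 4278 ± 1411 and 3977 ± 1140.0 CPM (SD, n = 5 mice), with wide spreads and no call (adjusted p = 0.3909 and 0.1658). All 5 livers at 1 µg/kg lay below the vehicle range.

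*Apoa2*, the second protein of HDL, was called only at 30 µg/kg. It was at 6768, 6061, 6009, 5365 and 7094 CPM in the vehicle and at 3400.2, 3141, 3965, 4723 and 4387 CPM at 30 µg/kg, with no overlap (log2 fold change -0.67 ± 0.17 (SE), adjusted p = 0.001983). Within groups *Apoa2* moved with the short-minus-long index (r = 0.81), and with the index as a covariate the log2 fold change at 30 µg/kg was -0.42, which was still called. At 0.01 µg/kg all 5 livers, from 3791 to 5305 CPM, were below the vehicle range without a call (adjusted p = 0.431). At 10 µg/kg the mean was 5155 ± 809.5 CPM (SD, n = 5 mice). The main edgeR test of any difference among the 9 groups did not call *Apoa2* (adjusted p = 0.06629), so its course over dose is not resolved.

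*Apoc1*, a small surface protein that activates the cholesterol-esterifying enzyme LCAT and slows receptor uptake of remnants, was the other gene with a fall of at least 2-fold. It was at 2770.3, 2274, 2322, 2238 and 2904 CPM in the vehicle and at 1051, 812, 1167, 1478 and 762 CPM at 30 µg/kg. Every treated liver was below every vehicle liver, also at 1, 3 and 10 µg/kg. The log2 fold change was -0.64 at 3 µg/kg (adjusted p = 0.02189) and -0.69 at 10 µg/kg (adjusted p = 0.005713), and it reached -1.25 ± 0.18 (SE, adjusted p = 8.241e-07) at the top dose. The call at 3 µg/kg was lost without vehicle replicate 1 or 5 or without TCDD 3 replicate 5 (adjusted p = 0.05129, 0.06105 and 0.08839). Within groups *Apoc1* moved with the short-minus-long index (r = 0.75), and with the index as a covariate the log2 fold change at 30 µg/kg was -0.998, which was still called.

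*Apoc3*, an inhibitor of lipoprotein lipase and of remnant clearance, was called at the 3 upper doses. Its levels were 1943, 1699.7, 1478, 1476 and 2245 CPM in the vehicle and 814, 714, 1025, 1293 and 723 CPM at 30 µg/kg. The groups did not overlap (log2 fold change -0.95 ± 0.17 (SE), adjusted p = 3.456e-05). *Apoc3* moved most closely of the 10 with the short-minus-long index within groups (r = 0.83), and with the index as a covariate the log2 fold change at 30 µg/kg was -0.69, which was still called. At 10 µg/kg it was called as well (log2 fold change -0.60, adjusted p = 0.01177). The call at 3 µg/kg (log2 fold change -0.58, adjusted p = 0.03049) was lost in 7 of 45 fits with a mouse left out, those without vehicle replicate 1, 2 or 5 or TCDD 3 replicate 1, 3, 4 or 5, with adjusted p from 0.05028 to 0.1099. At 0.03 µg/kg the 5 livers held 1239, 1112, 1262, 776 and 1057 CPM, all below the vehicle range. That difference, a log2 fold change of -0.70, was not called (adjusted p = 0.08277), whereas the DESeq2 Wald test did call it.

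*Apoc2*, the cofactor that activates lipoprotein lipase, was the gene called at the lowest dose. It was at 195, 168, 159, 148 and 176 CPM in the vehicle and at 118, 124, 103, 105 and 122 CPM at 1 µg/kg. The highest dose gave 107, 113, 116, 121 and 99.9 CPM. Neither treated group overlapped the vehicle. From 1 to 30 µg/kg the successive log2 fold changes were -0.57 (adjusted p = 0.01842), -0.61 (adjusted p = 0.003654), -0.43 (adjusted p = 0.02623) and -0.61 (adjusted p = 0.0008282). The group means at 1 and 30 µg/kg were close, 114 ± 9.73 and 111 ± 8.29 CPM (SD, n = 5 mice). The call at 1 µg/kg was lost without vehicle replicate 1, TCDD 1 replicate 3 or TCDD 1 replicate 4 (adjusted p = 0.06957, 0.05699 and 0.05626). At 10 µg/kg it was lost without vehicle replicate 1 or TCDD 10 replicate 1 (adjusted p = 0.072 and 0.06232).

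*Apoe*, the ligand for the low density lipoprotein receptor and its relatives, was the one with the most CPM of the 10 and the smallest SE at 30 µg/kg. It was at 16757, 18239.5, 15645, 16070.2 and 18483 CPM in the vehicle. The 5 livers at 3 µg/kg held 13219, 15029.5, 12750.3, 14296 and 12213 CPM, and those at 10 µg/kg 11174, 11407, 12007, 11936 and 10274 CPM. Those of the highest dose held 9287, 8708, 9213, 10069 and 10534 CPM. None of these 3 treated groups reached the vehicle range. The log2 fold change went from -0.34 (adjusted p = 0.01083) to -0.58 (adjusted p = 2.416e-06) and -0.83 ± 0.09 (SE, adjusted p = 3.895e-10). The call at 3 µg/kg was lost with only the vehicle and that dose in the fit (adjusted p = 0.05949) and with library size alone (adjusted p = 0.06231). Within groups its level moved with the balance of short and long genes in the library (r = 0.67), and with that index as a covariate its log2 fold change at 30 µg/kg was -0.74. Macrophages also make apolipoprotein E. The summed level of 9 macrophage and Kupffer cell markers ranged from 187 to 305 CPM in the vehicle and from 172 to 503.6 CPM at 30 µg/kg. Of the 9 markers 3 were called higher and 0 lower, where 15.5% of all genes were called higher and 14.1% lower.

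*Apoa4* and *Apoa5*, the other members of the chromosome 9 cluster, did not follow the rest. *Apoa4*, an apolipoprotein of triglyceride-rich particles that the fasting and fatty liver induces, was at 199, 296, 153, 252 and 228 CPM in the vehicle and at 152, 263, 194, 314 and 196 CPM at 30 µg/kg. The groups overlapped almost fully, and the log2 fold change was -0.01 with a 95% interval from -0.41 to 0.39 (adjusted p = 0.9741). The sign of so small a difference depended on the scaling, since it was 0.20 with library size alone and 0.04 with upper quartile factors, neither of them called.

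Across the doses *Apoa4* followed an uneven course. It was at 109, 140.4, 115, 130.3 and 140.0 CPM at 0.03 µg/kg, where all 5 livers lay below the vehicle range (log2 fold change -0.83, adjusted p = 0.08277, called by the DESeq2 Wald test). At 0.1 µg/kg it was at 199, 315, 151, 226 and 269 CPM, with 1 liver below and 1 above the vehicle range. At 3 µg/kg it was at 131, 162, 98.9, 122 and 193 CPM and was called lower (log2 fold change -0.67, adjusted p = 0.02789). That call was lost without vehicle replicate 2 or 4 or TCDD 3 replicate 1, 3 or 4 (adjusted p from 0.06418 to 0.1071). *Apoa4* differed among the 9 groups (adjusted p = 0.001829) but had no trend over dose (adjusted p = 0.9512). An antisense gene, *Gm10680*, overlaps 34.8% of its exon length and had a mean of 5.0 reads per vehicle liver, against at least 2478 reads for *Apoa4*.

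*Apoa5*, which promotes lipolysis of triglyceride-rich particles, was at 1209, 1505, 1264, 1328 and 1392 CPM in the vehicle and at 1076, 1291, 1450.5, 1333 and 1762 CPM at 30 µg/kg. The ranges overlapped (log2 fold change 0.05, 95% interval from -0.29 to 0.38, adjusted p = 0.8706). Its lowest means, 983 ± 162 CPM at 0.01 µg/kg and 973 ± 224 CPM at 0.3 µg/kg (SD, n = 5 mice), were not called lower, though 4 of the 5 livers in each were below the vehicle range.

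Over the ordered doses 7 of the 10 genes had a falling trend and 0 a rising one, where 19.7% of all genes fell and 20.8% rose with dose. The slope per step of dose was -0.24 ± 0.02 log2 units for *Apoa1* (SE, adjusted p = 4.858e-12), -0.11 for *Apoc1* (adjusted p = 1.115e-06) and -0.10 for *Apoe* (adjusted p = 4.85e-10). *Apob*, *Apoc2*, *Apoc3* and *Mttp* had slopes from -0.07 to -0.06. *Apoa2*, *Apoa4* and *Apoa5* had no called trend. With library size alone *Apoa5* had a called rising slope (0.05 per step, adjusted p = 0.01331), and without the 30 µg/kg group the trend of *Apoc3* was not called (adjusted p = 0.05374). A quasi-likelihood test in edgeR of any difference among the 9 groups called 8 of the 10, all but *Apoa2* (adjusted p = 0.06629) and *Apoa5* (adjusted p = 0.07702), against 28.8% of all genes. The likelihood ratio test of DESeq2 called all 10, as did edgeR with the short-minus-long index as a covariate. For these alternatives the shares of all genes called were not counted.

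Single steps between the upper doses were too small to call. From 3 to 10 µg/kg 0 of the 10 genes were called by edgeR, where 0.235% of all genes fell and 0.55% rose. From 10 to 30 µg/kg the count was again 0, where 0.183% of all genes fell and 0.429% rose. At an unadjusted p under 0.05 the counts were 2 and 5, and DESeq2 called 0 at both steps. The share of all genes under that unadjusted limit was not counted. The highest unadjusted p among those genes stood at rank 719 and 1279 of all 17464 genes, so many others passed it too. The largest change of the last step was that of *Apoc1*, a log2 fold change of -0.55 (adjusted p = 0.2089), which passed when TCDD 30 replicate 4 was left out. Of the 5 genes with an unadjusted p under 0.05 at that step 4 were lower and 1 was higher, *Apoa4*, with a log2 fold change of 0.43 (adjusted p = 0.5907).

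Together the 10 genes made up 3.95% ± 0.20 of the reads on genes in the vehicle and 2.59% ± 0.10 at 30 µg/kg (SD, n = 5 mice). The vehicle livers ran from 3.65% to 4.15% and the treated ones from 2.49% to 2.72%. *Alb*, the albumin gene, took 10.6% ± 1.1 and 11.6% ± 2.0 of the reads in the same groups and was not called (log2 fold change -0.08, adjusted p = 0.6502). These shares are of unscaled reads, whereas the fold change is on the TMM scale. The mean TMM factor was 0.952 in the vehicle and 1.105 at 30 µg/kg. Of the 8 hepatocyte markers 5 fell and 0 rose at 30 µg/kg, where 14.1% of all genes fell and 15.5% rose. Their median log2 fold change was -0.54, with 7 of the 8 below 0, beside a median of -0.64 for the 10 genes. *Alb* was thus among the markers that changed least, and a fall was not particular to the 10 genes.

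**Figure D3:**
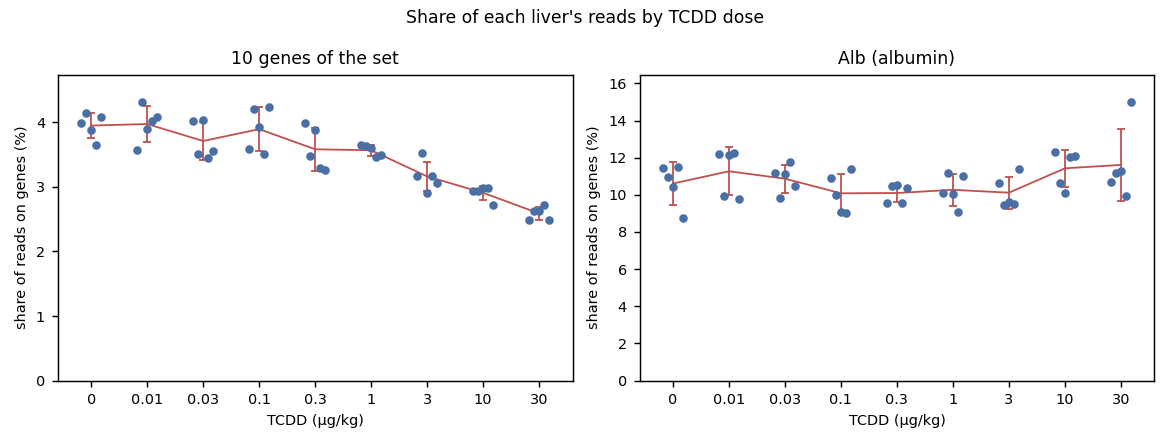
Share of each liver's reads on genes in percent (vertical axes, from 0) taken by the 10 genes together (left) and by *Alb* (right) against TCDD dose in µg/kg (0 is the vehicle). Points are mice, and lines join means with bars of 1 SD (n = 5 mice). The share of the 10 genes declines from 3.95% to 2.59%, and group means of the *Alb* share lie between 10.1% and 11.6%.

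The order of transcript abundance was the same in the vehicle and at 30 µg/kg. Exon length was the union over all annotated transcripts of a gene, 11 for *Apoe* and 4 for *Apoa2*. The order between genes depends on that choice of length. In CPM per kb of exon, the scale on which genes can be compared, the vehicle means were 11656 ± 1269 for *Apoa2*, 7970 ± 596 for *Apoe*, 4999 ± 684 for *Apoa1*, 3362 ± 418 for *Apoc1*, 1744 ± 324 for *Apoc3*, 531 ± 45.6 for *Apoa5*, 401 ± 68.5 for *Apob*, 208 ± 22.02 for *Apoc2*, 124 ± 29.8 for *Apoa4* and 66.8 ± 7.85 for *Mttp* (SD, n = 5 mice). No neighbours in this order overlapped in any liver. At 30 µg/kg some neighbours did overlap. *Apoa1* (1568 ± 439 CPM per kb) overlapped *Apoc1* (1417 ± 390.2), *Apoc1* overlapped *Apoc3* (901 ± 243), and *Apoc2* (137 ± 10.2) overlapped *Apoa4* (123 ± 35.3).

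The balance of short and long genes in a library moved with several of these values. Whether that balance reflects the libraries or expression in the livers was not tested. For each library an index was taken as the mean log2 CPM of 667 genes with exons under 1000 bp minus that of 5117 genes over 5000 bp. Relative to the vehicle mean its group means were -0.04, -0.17, -0.09, -0.09, -0.01, -0.09, -0.06 and -0.13 from 0.01 to 30 µg/kg. The SD was 0.07 in the vehicle and ran from 0.045 at 30 µg/kg to 0.18 at 3 µg/kg in the treated groups (n = 5 mice each). Within groups, after removal of group means over the 45 mice, it was related to *Apoc3* (Pearson r = 0.83, Spearman rho = 0.84), *Apoa2* (r = 0.81, rho = 0.74), *Apoc1* (r = 0.75, rho = 0.72) and *Apoe* (r = 0.67, rho = 0.65). In a permutation test within groups, adjusted over the 10 genes, p was 2.5e-05 for all 4 values of r, from the smallest p that the 100000 permutations can give. The adjusted p of rho ran from 5e-05 to 7.5e-05.

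*Apoc2* (r = 0.55, rho = 0.48) and *Apoa5* (r = 0.51, rho = 0.36) were related less closely (permutation test, adjusted p = 0.00213 for both values of r, 0.0046 and 0.0361 for rho). *Apob*, the longest transcript, went the other way (r = -0.46, rho = -0.42, permutation test, adjusted p = 0.00754 and 0.0127). *Apoa1* (r = -0.15, rho = -0.03), *Mttp* (r = -0.07, rho = -0.05) and *Apoa4* (r = 0.03, rho = 0.01) had values that did not pass (permutation test, adjusted p from 0.564 to 0.942). Without the 2 mice farthest from the median index r was 0.79 for *Apoc3*, 0.74 for *Apoa2*, 0.70 for *Apoc1*, 0.71 for *Apoe*, 0.45 for *Apoc2*, 0.53 for *Apoa5* and -0.39 for *Apob*.

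With the index as a covariate the 8 genes called at 30 µg/kg were still 8, where 2376 of all 17464 genes fell and 2506 rose in that fit. Besides the values given above for *Apoa2*, *Apoc1*, *Apoc3* and *Apoe*, the log2 fold change became -0.46 for *Apoc2*, -0.54 for *Apob* and -0.55 for *Mttp*.

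**Figure D4:**
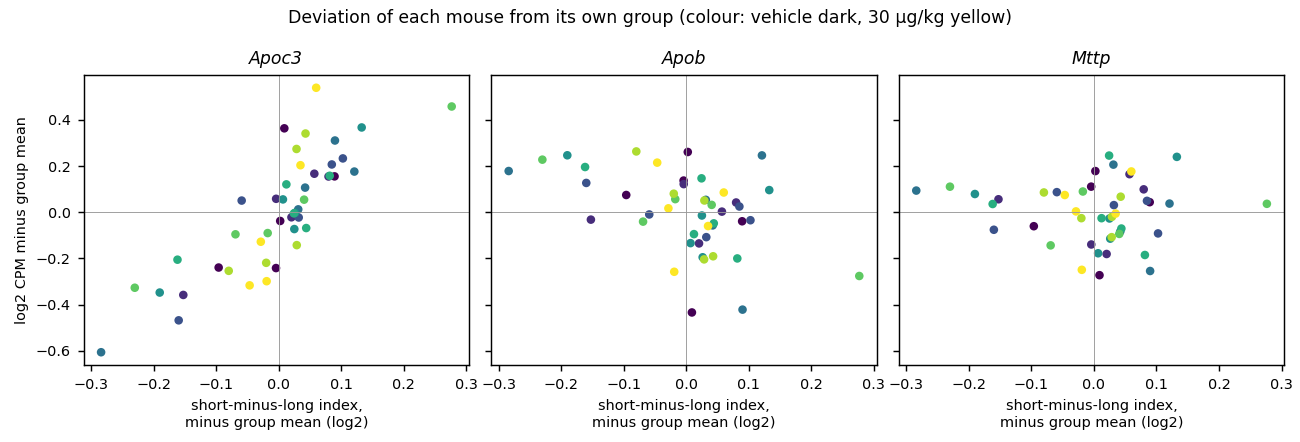
Deviation of log2 CPM from the group mean (vertical axes) for *Apoc3*, *Apob* and *Mttp* against the deviation of the short-minus-long index from the group mean (horizontal axes, log2 units), with 1 point per mouse (n = 45) coloured by dose from dark (vehicle) to yellow (30 µg/kg). *Apoc3* climbs with the index (r = 0.83), *Apob* declines (r = -0.46) and *Mttp* shows no slope past the test (r = -0.07).

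Over the 45 livers the transcripts most alike to *Apob* in log2 CPM, among 12411 other genes with a mean of at least 1 CPM, were *Efr3a* (r = 0.90), *Atl3* (r = 0.89) and *Dpp8* (r = 0.88). Those most alike to *Mttp* were *Slco1b2*, a hepatocyte anion uptake transporter (r = 0.87), *Sos1* (r = 0.86) and *Usf3* (r = 0.85). For *Apoa1* they were *Elovl2*, an elongase of polyunsaturated fatty acids (r = 0.92), *C4bp*, a complement regulator (r = 0.91), and *Ahsg*, the plasma protein fetuin-A (r = 0.90). These are descriptions over mice that share the dose series.

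Of 18 partners of VLDL assembly and secretion 9 fell and 0 rose at 30 µg/kg, where 14.1% of all genes fell and 15.5% rose, with a median log2 fold change of -0.38. The largest falls were those of *Ces1d*, a lipase that mobilizes stored triglyceride for VLDL (log2 fold change -1.47 ± 0.35 (SE), adjusted p = 0.001066), *Aadac*, another lipid hydrolase of the endoplasmic reticulum (-1.35 ± 0.11, adjusted p = 2.478e-13), and *Sort1*, the sorting receptor sortilin (-1.24 ± 0.35, adjusted p = 0.005871). *Ces1d* was at 1183 ± 267 CPM in the vehicle and 426 ± 107 CPM at 30 µg/kg, and *Aadac* at 723 ± 18.2 and 283 ± 80.3 CPM (SD, n = 5 mice). *Sort1* was low, at 10.99 ± 2.66 and 4.66 ± 0.87 CPM. At 1, 3 and 10 µg/kg 1, 5 and 6 of the 18 fell, where 0.515%, 3.2% and 7.47% of all genes did.

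Of 8 other plasma apolipoproteins and HDL proteins 7 were tested, and 5 fell while 1 rose at 30 µg/kg (median log2 fold change -0.48). Of all genes 14.1% fell and 15.5% rose. *Apon* fell by 1.06 on the log2 scale (adjusted p = 1.256e-07), *Apoh* by 0.66 (adjusted p = 2.551e-07) and *Clu* by 0.62 (adjusted p = 1.256e-07). *Apoc4*, which lies 141 bp from *Apoc2* in the chromosome 7 cluster, had a log2 fold change of -0.44 (adjusted p = 0.01904). *Lcat*, the enzyme that esterifies cholesterol on HDL, rose by 0.36 (adjusted p = 0.00953).

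In the mouse liver *Apob* mRNA is edited to encode the short B-48 form. Of 3 genes of the editing complex 1 fell at 30 µg/kg, where 14.1% of all genes fell. It was the cofactor *Rbm47* (log2 fold change -0.43, adjusted p = 0.04493). The deaminase *Apobec1* (log2 fold change -0.11, adjusted p = 0.7005) and *A1cf*, the partner of *Apobec1* (log2 fold change -0.19, adjusted p = 0.4573), were not called. Read counts per gene do not show editing itself.

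Of 16 transcription regulators known to act on these genes 6 fell and 0 rose at 30 µg/kg (median log2 fold change -0.25). Of all genes 14.1% fell and 15.5% rose. *Srebf1*, the regulator of fatty acid synthesis, fell by 1.26 on the log2 scale (adjusted p = 2.207e-05), the coactivator *Ppargc1b* by 1.09 (adjusted p = 0.008291) and *Cebpa* by 0.90 (adjusted p = 1.903e-05). *Hnf4a*, which drives many apolipoprotein genes, had a log2 fold change of 0.11 (adjusted p = 0.5718), and *Creb3l3*, an activator of *Apoa4*, *Apoa5* and *Apoc2*, one of 0.13 (adjusted p = 0.4051).

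Of 16 lipoprotein receptors, lipases and their modulators 3 fell and 3 rose (median log2 fold change 0.06), shares near those over all genes, 14.1% lower and 15.5% higher. *Lpl*, lipoprotein lipase, rose by 2.25 on the log2 scale (adjusted p = 1.452e-06), from 17.1 ± 6.59 to 81.0 ± 17.3 CPM (SD, n = 5 mice), the sterol exporter *Abcg1* by 1.80 (adjusted p = 1.726e-07) and *Gpihbp1*, the endothelial anchor of the lipase, by 0.59 (adjusted p = 0.04061). *Sdc1*, a heparan sulfate proteoglycan that binds remnants, fell by 0.63 (adjusted p = 0.004741) and *Lipc*, hepatic lipase, by 0.54 (adjusted p = 0.000143). Of 9 lipid droplet coat genes 8 were tested, and 1 rose, also near the 15.5% over all genes, *Hilpda* (log2 fold change 1.52, adjusted p = 3.756e-06).

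**Figure D5:**
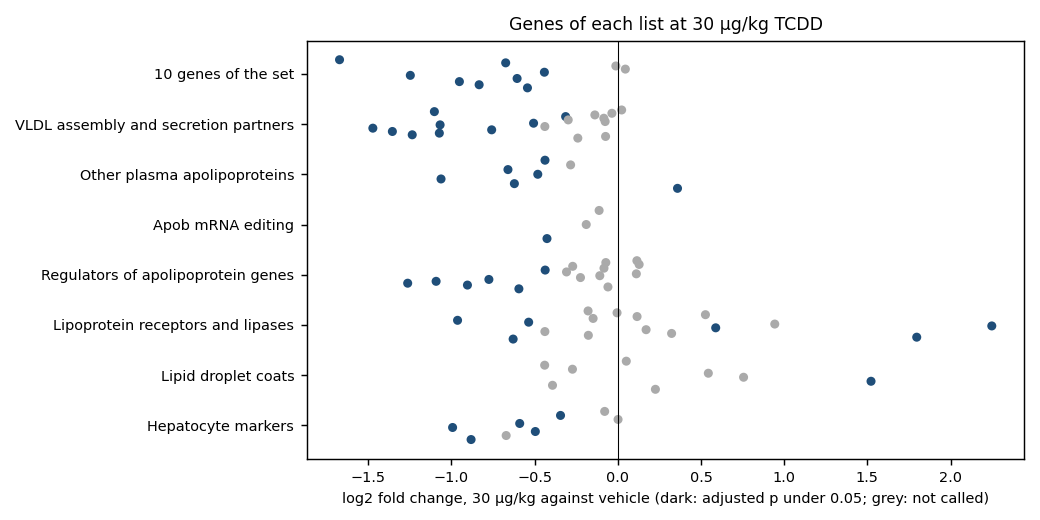
Log2 fold change at 30 µg/kg TCDD against the vehicle (horizontal axis) for every tested gene of the 10-gene set, of 6 lists of related genes and of the hepatocyte markers, one row per list and one point per gene. Dark points have an adjusted p under 0.05 and grey points do not, with 8 dark points in the set of 10 and 9 of 18 among the VLDL partners, all below 0.

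Markers of other cells rose in the same livers. At 30 µg/kg 4 of 5 monocyte and neutrophil markers, 3 of 6 lymphocyte, 4 of 6 stellate cell and fibroblast and 3 of 5 endothelial markers were called higher and 0 lower. Of all genes 15.5% were called higher and 14.1% lower at that dose. Their summed levels ranged from 2.72 to 4.25, 2.22 to 2.76, 259 to 366 and 117 to 151 CPM in the vehicle, and from 6.41 to 14.2, 2.95 to 6.81, 496 to 694 and 137 to 217 CPM at 30 µg/kg. Of 5 cholangiocyte markers 0 were called, with sums from 52.1 to 77.5 CPM and from 52.99 to 70.2 CPM. *Apob* and *Apoa4* are also made by the intestine, and 4 intestinal markers, of which 3 were tested, summed to 81.4 to 144 CPM and 107 to 157 CPM, with 1 of them called higher, *Fabp2*, and 1 at 0 in every mouse at 30 µg/kg. Of 5 pancreatic acinar markers 4 were at 0 in every mouse of both groups, and the fifth, *Cela1*, fell by 1.88 on the log2 scale. The part of these cells in the values of the 10 genes was not tested.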

How the data were processed

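Per the labels and the study's methods, RNA of each liver was sequenced as single-end reads, which the authors checked with FastQC 0.11.2, mapped with TopHat 1.4.1 to GRCm38, handled with SAMtools 0.1.19 and counted per Ensembl gene with HTSeq 0.6.1. The deposited values are whole-number counts per gene, not normalized. Whether counting used strand is not given in the sources used here. Reads on no feature (9.11% to 17.1% of uniquely mapped reads) or on more than 1 gene (1.34% to 2.07%) name no gene and were left out.

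Libraries were scaled by TMM in edgeR 4.0.16 (R 4.3.3). Genes with more than 4 reads in any mouse entered 1 quasi-likelihood fit over all 45 mice with a coefficient per group. P-values were adjusted by Benjamini-Hochberg over 17464 genes within each comparison. The trend used the rank of the dose. Alternatives were DESeq2 1.42.0, other scalings and filters, each dose with the vehicle alone, other dose scales and each mouse left out. The short-minus-long index, with genes of at least 1 CPM on average, was chosen after seeing the data. Exon lengths came from GENCODE M21 on GRCm38, a later annotation than the authors'. Statistics were tested on simulated counts.

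The 10 genes and all lists were chosen with earlier results of these data known. Besides them, genes were named as the up to 3 called members of a list with the largest change in each direction at 30 µg/kg, partners or neighbours needed for a statement, genes overlapping their exons, and the 3 genes most alike to *Apob*, *Mttp* and *Apoa1*. A gene that this rule would name is not reported here. Samples were grouped by their labelled dose. Counting error is small at these depths. The p-values of the edgeR group comparisons set a difference against the spread between mice within groups. In the main fit that spread was estimated from all 45 mice, not from the 5 mice of a group alone.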

Additional observations from a re-analysis of the deposited data

Results flagged for a closer look

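In 5 of the 90 sets of 5 livers examined, 10 genes in 9 groups, 1 liver lay further from its group than Dixon's critical value of 0.71 for the gap divided by the range. Chance gives 1 in 20, or 4.5 of 90. *Apoa1* was at 9469.11 CPM in TCDD 0.1 replicate 5, with the next liver at 5979.78 CPM. *Apoa1* was at 5142.12 CPM in TCDD 3 replicate 5, with the next at 2730.34 CPM, and without that liver its log2 fold change at 3 µg/kg was -1.37. *Apoc2* was at 220.51 CPM in TCDD 0.01 replicate 3, with the next at 140.06 CPM. *Apoc2* was at 99.16 CPM in TCDD 0.1 replicate 4, with the next at 142.21 CPM. *Apoc2* was at 185.64 CPM in TCDD 0.3 replicate 1, with the next at 121.79 CPM, and without that liver *Apoc2* was called lower at 0.3 µg/kg.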

How the results depend on the processing

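Counts of the 10 genes called kept within 1.5 times, or stayed at 0, in 90 of 94 alternatives. The main count was 0 at 0.3 µg/kg and below and at both steps between upper doses, so agreement there means only that the count stayed at 0. The DESeq2 Wald test called 2 at 0.03 µg/kg. At 1 µg/kg the count was 2 with only the vehicle and that dose in the fit and 3 with the short-minus-long covariate, which was chosen after seeing the data. At 3 µg/kg it was 3 with library size alone, without *Apoa4*, *Apoc3* and *Apoe*. With a mouse left out the counts ran from 0 to 1 at 0.3 µg/kg, from 0 to 1 at 1 µg/kg and from 0 to 1 between 10 and 30 µg/kg. Library size alone also ended the calls of *Apob* at 10 and 30 µg/kg and of *Apoc2* at 10 µg/kg. Without the 30 µg/kg group *Apoc3* lost its trend (adjusted p = 0.05374). Values near 0 changed sign: *Apoa4* at 30 µg/kg was 0.1971 with library size alone, 0.0356 with upper quartile factors, 0.0093 with edgeR's filterByExpr and -0.1645 to 0.1124 with a mouse left out; its slope was 0.0212, 0.0035 and, with the covariate, 0.0010, and -0.0175 to 0.0115 with a mouse left out. *Apoa5* at 10 µg/kg was 0.0631 with library size alone and 0.0160 with the covariate, and at 30 µg/kg -0.0574 to 0.1183 with a mouse left out. *Apob* at 1 µg/kg ran from -0.0903 to 0.0796 with a mouse left out. The cause was not tested. No paired analysis was possible because replicate numbers were given in accession order only and pair no mice.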
